A study of Mus musculus with 10 samples.

Results

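Primary cortical microglia that received serum vesicles from nerve-injured mice were compared with microglia that received saline. The 7 libraries of this comparison, 3 with vesicles and 4 with saline, were chosen by their treatment label from the 10 libraries of the series, and tests cover 14806 of the 32074 listed genes, those that averaged 1 TPM or more across all 10. Microglia are the resident macrophages of the central nervous system. In this series they were grown from the cortex of CD-1 pups at postnatal day 2 to 4, a culture from newborn brain rather than adult tissue. All groups were kept for 24 h in medium with 10% fetal bovine serum depleted of exosomes. The SNI-sEV group received 1 µg of serum sEVs, small membrane-bound extracellular vesicles shed by cells, that came from mice after spared nerve injury (SNI). SNI models neuropathic pain by cutting some branches of the sciatic nerve while leaving another uncut. The control group received phosphate-buffered saline (PBS), and a further 3 libraries received 1 µg of sEVs from sham-operated mice, which serve here to place the SNI-sEV values. The labels call the libraries biological replicates and are silent on separate cultures or vesicle preparations, so p-values measure the spread between these libraries. PBS holds no vesicles, so an effect of serum vesicles as such and an effect of the injury cannot be told apart in this comparison.

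Microglia read foreign and misplaced nucleic acids with sensors in the cytosol and in endosomes. The sensors switch on type I interferons, which are secreted and bind a receptor on the same and on neighbouring cells. The receptor acts through the kinases JAK1 and TYK2 on transcription factors, among them STAT2 and IRF9, which together bind a DNA motif called the interferon-stimulated response element (ISRE). The genes under this element encode antiviral enzymes, the ubiquitin-like protein ISG15, GTPases that attack membranes around intracellular microbes, and proteins that load peptides onto class I major histocompatibility (MHC) molecules. In models of peripheral nerve injury, microglia of the spinal cord are known to proliferate and to release mediators that sensitise pain pathways.

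Transcript levels are given in TPM, shares of the transcripts per gene length scaled to 1000000 per library. Read totals cannot be had from TPM, so the sequencing depth is unknown and counting intervals are not given. In each of the 7 libraries 14577 to 14973 genes reached 1 TPM. Across genes, log2(TPM + 1) correlated at 0.987 to 0.996 within PBS, at 0.995 to 0.996 within SNI sEV and at 0.982 to 0.993 between both groups, over genes that are not independent replicates. In a principal component analysis of the 7 libraries, the first component held 44.9% of the variance, and PBS replicate 1 stood apart at -29.6, beside -7.43 to 1.55 for the other PBS libraries and 11.1 to 16.8 for SNI sEV. The labelled cell type was checked against its markers: all 16 microglia and macrophage markers were tested, with a summed level of 24912 to 26940 TPM in PBS and 28840 to 31247 TPM in SNI sEV. Of 12 neuron markers, 7 stayed under 1 TPM in all 7 libraries, and the summed level of the list was 24.7 to 35.5 TPM in PBS and 26.5 to 29.9 TPM in SNI sEV. Summed oligodendrocyte-lineage markers were at 632 to 726 and 691 to 773 TPM, astrocyte markers at 183 to 221 and 205 to 212 TPM, and 11 of 12 lymphocyte and neutrophil markers stayed under 1 TPM in all 7 libraries. The labels name no batch, and treatment cannot be told apart from one that all libraries of a group shared. In bulk RNA, fewer cells of a type and less RNA per cell cannot be told apart.

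In the SNI-sEV libraries interferon-response and macrophage-activation genes were higher, some of them many-fold, and other genes were lower by smaller amounts. By limma with an adjusted p under 0.05, 440 genes (2.97% of those tested) were higher than in PBS and 350 (2.36%) were lower. The rises were larger: 102 genes (0.689%) rose at least 2-fold and 1 gene, Lsp1, fell at least 2-fold, and the median log2 fold change was 0.58 over the rises, -0.31 over the falls and -0.01 over all genes tested. Fold changes here refer to TPM + 1 and understate the ratio of genes near 0. In each called gene the SNI-sEV and PBS libraries did not overlap, as in 2568 genes (17.3%) overall. SNI-sEV replicate 1 was the highest of its group in 305 of the 440 rises and the lowest in 211 of the 350 falls. Without this library 278 genes rose and 92 fell, and with the replicate number as a block 334 rose and 127 fell. Without PBS replicate 1, 502 rose and 653 fell. Over the single libraries left out in turn, the rises ranged from 278 to 502 and the falls from 92 to 653.

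**Figure D1:**
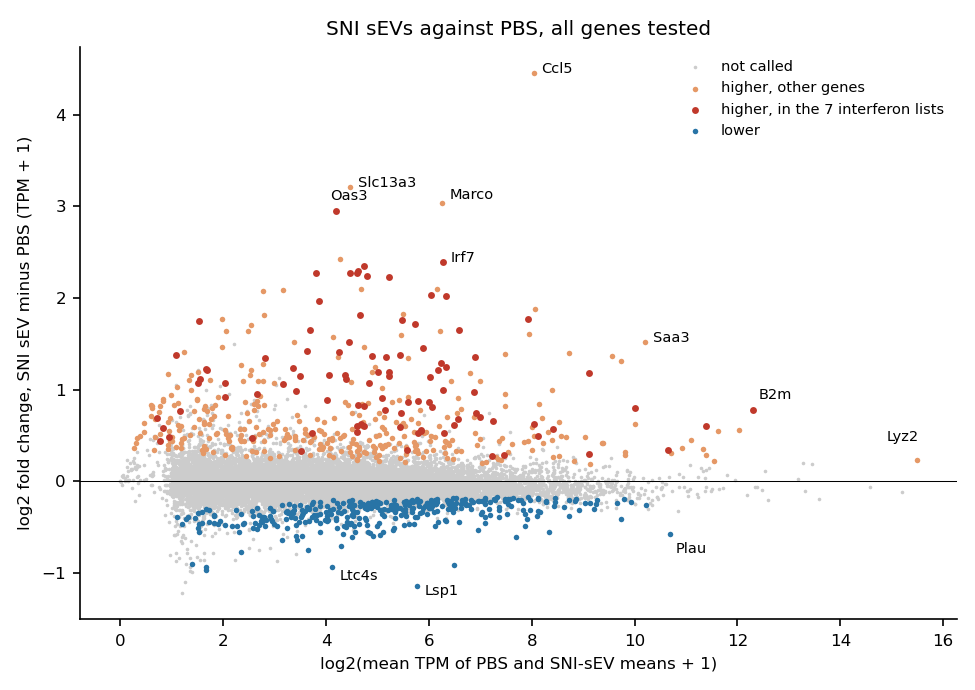
Each point is a tested gene. The x axis shows the average of its PBS and SNI-sEV mean TPM, as log2(TPM + 1). The y axis shows the log2 fold change of SNI sEV over PBS. Coloured points are the 440 genes called higher and the 350 called lower by limma. The rises reach 4.45 for Ccl5 and the falls reach -1.14 for Lsp1.

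Interferon-stimulated genes made up a large share of the rises. Across 7 lists of interferon signalling, sensing, antiviral effectors, ISG15 conjugation, GTPases, MHC class I and the immunoproteasome, 97 of 132 tested genes rose (beside 2.97% of all genes) and 0 fell, with a median log2 fold change of 0.76 beside -0.01 over all genes. At an unadjusted p under 0.05, 109 were higher and 1 lower. The lists were chosen with earlier results of these data known. Ifi27, a gene named for its induction by interferon alpha, fell and is not on them. A median given for a list is always over the log2 fold changes of its tested genes. Counts given for any list stand beside 2.97% of all tested genes higher and 2.36% lower. These 97 genes made up 22% of all rises, and 49 of the 102 rises of at least 2-fold belonged to these lists. The summed level of the 7 lists was 15478 to 17697 TPM in PBS and 23805 to 25872 TPM in SNI sEV, so both groups stood clear of each other. PBS replicate 2 was the highest PBS library in 84 of the 97 genes, and SNI-sEV replicate 1 the highest SNI-sEV library in 73. Without PBS replicate 2, 99 genes of these lists rose, and without SNI-sEV replicate 1, 83.

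**Figure D2:**
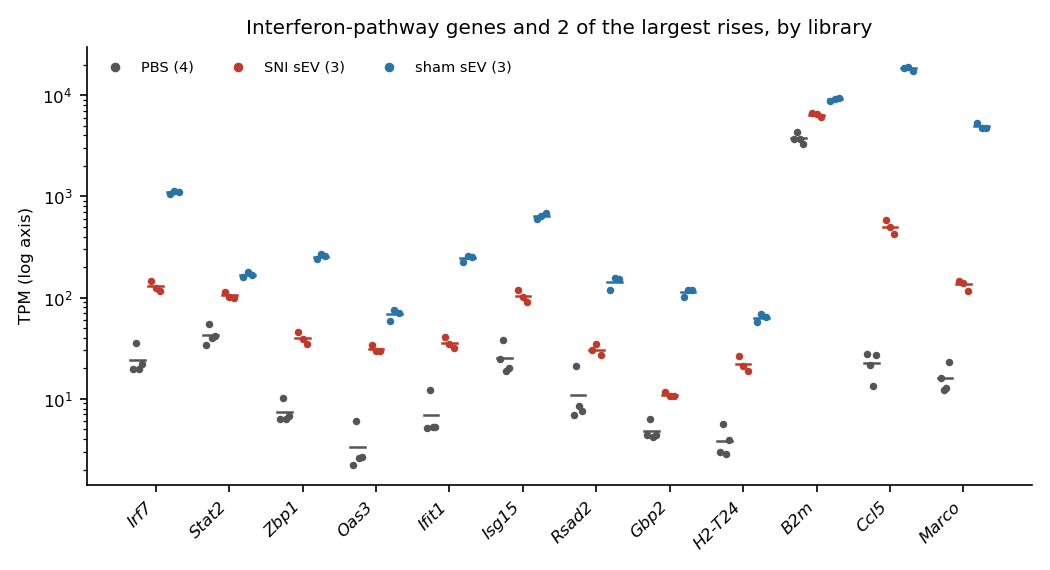
TPM on a log axis for 12 genes in each PBS, SNI-sEV and sham-sEV library, 1 point per library. In all 12 genes the SNI-sEV points lie above the PBS points, and PBS replicate 2 is often the highest of the PBS points.

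Many promoters of the rising genes carry the ISRE letters. Those of 4 interferon-stimulated genes with strong rises are shown beside that of Marco, a scavenger receptor gene that also rose strongly, so that the letters and their place can be read. The windows cover the 250 bases before the start of the gene in RefSeq on GRCm38.p6, printed on the strand of the gene. Capitals mark matches to the ISRE letters on either strand, which are GAAA, any 2 bases and GAAA again, and the window of Marco holds none.
Ifit1 (chr19:34640639-34640888, plus strand): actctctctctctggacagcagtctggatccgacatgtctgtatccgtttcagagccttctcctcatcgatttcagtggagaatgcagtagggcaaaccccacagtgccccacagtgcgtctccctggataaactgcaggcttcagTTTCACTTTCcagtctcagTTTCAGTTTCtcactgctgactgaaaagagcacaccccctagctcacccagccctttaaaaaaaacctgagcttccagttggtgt
Ifit3 (chr19:34583279-34583528, plus strand): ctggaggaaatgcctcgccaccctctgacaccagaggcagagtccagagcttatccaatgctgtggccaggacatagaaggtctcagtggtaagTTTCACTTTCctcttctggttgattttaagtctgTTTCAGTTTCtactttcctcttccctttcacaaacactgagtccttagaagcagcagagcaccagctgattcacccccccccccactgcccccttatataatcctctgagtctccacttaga
Oas3 (chr5:120777660-120777909, minus strand): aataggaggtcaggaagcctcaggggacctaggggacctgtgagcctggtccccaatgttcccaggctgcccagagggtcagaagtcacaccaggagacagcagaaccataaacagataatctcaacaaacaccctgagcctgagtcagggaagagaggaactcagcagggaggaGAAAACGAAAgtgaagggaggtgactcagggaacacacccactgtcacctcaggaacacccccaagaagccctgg
Isg15 (chr4:156200819-156201068, minus strand): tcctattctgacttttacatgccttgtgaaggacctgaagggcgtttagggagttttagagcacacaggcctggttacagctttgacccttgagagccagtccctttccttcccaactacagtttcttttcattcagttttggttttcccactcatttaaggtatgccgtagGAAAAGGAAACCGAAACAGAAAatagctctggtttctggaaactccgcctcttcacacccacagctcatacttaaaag
Marco (chr1:120505025-120505274, minus strand): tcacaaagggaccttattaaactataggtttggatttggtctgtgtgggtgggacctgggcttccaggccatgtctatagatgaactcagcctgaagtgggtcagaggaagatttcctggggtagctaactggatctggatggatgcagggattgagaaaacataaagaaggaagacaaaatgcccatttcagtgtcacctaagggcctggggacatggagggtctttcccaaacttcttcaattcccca
The matches began 104 and 85 bases before the start in Ifit1, 156 and 122 in Ifit3, 75 in Oas3, and 78, 72 and 66 in Isg15, where they overlap each other.

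The motif was common in the promoters of rising genes and rare elsewhere. Over windows from 250 bases before to 50 after the start, on both strands, 24 of 34 interferon-list genes that rose at least 2-fold held an ISRE match (70.6%), beside 385 of 9682 tested genes with a promoter in the table (3.98%) and 1079 of 27025 genes in all (3.99%). Of all rises, 79 of 310 held a match (25.5%). Of all falls, 7 of 213 did (3.29%). Of the genes that rose at least 2-fold outside the interferon lists, 7 of 37 held a match (18.9%). The windows of Marco, Slc13a3, Fpr1 and Cbr2 held none. That of Irf7, a member of the interferon lists, held none either. A match is a stretch of letters in a window and not a measured binding site, and many interferon-list genes were placed on their lists because they are known to respond to interferon.

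At the top of the pathway, no ligand or receptor gene passed. Of 5 tested interferon receptor genes none passed (limma, 0 at an adjusted p under 0.05 and 0 at an unadjusted p under 0.05), with a median log2 fold change of 0.03. The receptor chain Ifnar1, chosen with Ifnar2 after their values were seen, averaged 79 ± 9.56 TPM in PBS (SD, n = 4) and 74.2 ± 3.51 TPM in SNI sEV (SD, n = 3), and Ifnar2 39.3 ± 1.96 and 40.5 ± 0.72 TPM. Ifnb1, which encodes interferon beta, was not tested because its mean was under 1 TPM: its highest value in the 7 libraries was 0.118 TPM, and it was listed at 0 in 4 of them. Ifna4, an interferon alpha, was listed at 0 in 6 of the 7.

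Below the receptor, several of the factors that carry the signal to the nucleus rose. Of 17 tested genes of the JAK-STAT and IRF list 5 rose and 0 fell (median log2 fold change 0.12), among them Irf7, Stat2, Irf9 and Jak2. Irf7, the factor that amplifies interferon production (chr7:141262706-141266481, minus strand), stood at 19.6, 35.4, 19.7 and 22.2 TPM in PBS replicates 1 to 4 and at 146, 125 and 115 TPM in SNI-sEV replicates 1 to 3. PBS replicate 2 was the highest of its group and still lay far below the lowest SNI-sEV library. The rise was 5.26-fold (log2 fold change 2.40 ± 0.17 SE, limma adjusted p = 1.64e-05).

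Stat2, which binds the motif together with IRF9, was at 34, 55.2, 40.2 and 41.7 TPM in PBS and at 114, 100.5 and 100.1 TPM in SNI sEV, a 2.45-fold rise (limma adjusted p = 0.000128). Its partner Irf9 rose 1.44-fold, from 44.4 to 64 TPM. The libraries of both groups did not overlap in either gene. The kinase gene Jak2 rose 1.26-fold (limma adjusted p = 0.0319), and its call was lost with the replicate block (adjusted p = 0.124). Irf3 and Irf8, other factors of the family that were chosen after their values were seen, were at -0.10 and -0.12 on the log2 scale and did not pass (adjusted p = 0.563 and 0.21).

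Sensors of nucleic acids rose over a wide range. Of 21 tested sensing genes 14 rose and 0 fell, with a median log2 fold change of 0.63. Zbp1, a sensor of left-handed nucleic acids that can trigger cell death, was at 6.38, 10.1, 6.37 and 6.7 TPM in PBS and at 45.9, 38.8 and 34.4 TPM in SNI sEV. Here too PBS replicate 2 led its group, and the groups did not overlap. The rise was 4.89-fold (log2 fold change 2.29 ± 0.14 SE, limma adjusted p = 7.78e-06).

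Ddx58, which encodes RIG-I, rose 2.56-fold from 19.3 to 50.1 TPM, Ifih1, which encodes MDA5, 2.23-fold from 11.9 to 27.2 TPM, and Dhx58, the related regulator LGP2, 2.59-fold from 23.2 to 61 TPM. Ifi204, a member of the family of DNA-binding proteins with pyrin and HIN domains, rose 3.13-fold to 144 ± 8.95 TPM (SD, n = 3; limma adjusted p = 0.00024), and its neighbour Mndal rose 2.34-fold from 0.92 TPM. How the authors divided reads among the near-identical genes of this family is not stated. Cgas and Sting1, the enzyme and the adaptor of the main cytosolic DNA pathway, were chosen after their values were seen. They did not pass, at 10.4 and 11.8 TPM for Cgas and 46.8 and 45.5 TPM for Sting1.

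Nearly all antiviral effectors rose. Of 49 tested genes 42 rose and 0 fell, with a median log2 fold change of 1.18 beside -0.01 over all genes. Oas3, one of the enzymes that make the short RNA messenger of the antiviral response, was at 2.23, 5.98, 2.6 and 2.67 TPM in PBS and at 34.2, 29.6 and 29.4 TPM in SNI sEV, the largest rise of the list at 7.69-fold (log2 fold change 2.94 ± 0.22 SE, limma adjusted p = 2.16e-05). PBS replicate 2 was above the other PBS libraries and below every SNI-sEV library. Oas2 rose 5.08-fold to 43.1 ± 3.76 TPM, Oasl2 4.05-fold to 127 ± 8.76 TPM and Oas1a 2.57-fold to 169 ± 8.93 TPM (SD, n = 3 each).

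Ifit1, which binds RNA with foreign caps, was at 5.15, 12.2, 5.31 and 5.24 TPM in PBS and 40.5, 34.5 and 31.5 TPM in SNI sEV, and rose 4.83-fold (limma adjusted p = 0.000145). Ifit3 and its copy Ifit3b rose 4.83-fold and 4.73-fold, and reads shared between both copies make their separate values uncertain. Rtp4, a chaperone of receptors that is induced by interferon, rose 4.67-fold from 12.8 to 60.3 TPM. Ifi44 rose from 0.328 to 3.45 TPM and Ifi35 from 71.8 to 115 TPM.

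The system that attaches the ubiquitin-like protein ISG15 to other proteins had 5 of 6 tested genes higher, 0 lower and a median log2 fold change of 0.85. Isg15 itself was at 24.5, 38.2, 18.8 and 20.3 TPM in PBS and at 119.8, 101 and 91 TPM in SNI sEV, a 4.1-fold rise without overlap (limma adjusted p = 0.000112). The activating enzyme Uba7 rose 1.76-fold, the conjugating enzyme Ube2l6 1.53-fold and the mouse ligase Herc6 1.85-fold. Usp18, which removes ISG15 and restrains the interferon receptor, rose 3.39-fold from 19.9 to 67.1 TPM.

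Of 15 tested interferon-induced GTPases 13 rose and 0 fell (median log2 fold change 1.00), most from low levels, and without SNI-sEV replicate 1 the number was 10. Guanylate-binding protein Gbp2 was at 4.39, 6.27, 4.21 and 4.37 TPM in PBS and 11.7, 10.7 and 10.6 TPM in SNI sEV, a 2.08-fold rise (limma adjusted p = 0.000198). The groups did not overlap, and PBS replicate 2 was again the highest control. Gbp9 rose 2.36-fold to 13.3 TPM, and the immunity-related GTPases Igtp and Irgm2 rose 2.11-fold and 2.23-fold to 37.5 and 21.8 TPM. Members of this family resemble each other closely, so reads may be divided between them.

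Most genes for presenting peptides on MHC class I rose. Of 19 tested class I and peptide-loading genes 14 rose and 0 fell (median log2 fold change 0.63), while of 8 class II genes 1 rose, the cathepsin Ctss, with a median of -0.13. B2m, the light chain of class I molecules, was at 3698, 4276, 3644 and 3304 TPM in PBS and at 6646, 6438 and 6066 TPM in SNI sEV. The lowest SNI-sEV library lay above the highest PBS library, and the rise was 1.72-fold (log2 fold change 0.78 ± 0.08 SE, limma adjusted p = 0.000133).

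Classical heavy chains H2-K1 and H2-D1 rose 1.74-fold and 1.52-fold, to 1309 ± 99.1 and 3247 ± 253 TPM (SD, n = 3 each). The nonclassical H2-T24 rose most, from 2.97, 5.59, 2.85 and 3.94 TPM in PBS to 26.5, 20.9 and 18.9 TPM in SNI sEV, 4.85-fold (limma adjusted p = 2.85e-05), with no overlap. H2-T23, which encodes Qa-1 and presents leader peptides, rose 1.96-fold and Tapbp, the loading chaperone tapasin, 1.54-fold. Reads of class I genes may be shared between close copies. The immunoproteasome, which cuts peptides for these molecules, had 4 of 5 tested genes higher and 0 lower (median 0.50): the catalytic subunits Psmb9 and Psmb8 rose 1.47-fold and 1.41-fold, the activator Psme2 1.46-fold and Psme1 1.22-fold, whose call was lost with the replicate block (adjusted p = 0.0553).

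The 3 largest rises of the comparison were genes of recruitment, uptake and metabolism. Ccl5, a chemokine for T cells and monocytes (chr11:83525778-83530518, minus strand), was at 27.8, 21.7, 13.4 and 27.4 TPM in PBS and at 579.9, 503 and 422 TPM in SNI sEV. The lowest SNI-sEV library was far above every PBS library, and the rise was 21.9-fold (log2 fold change 4.45 ± 0.20 SE, limma adjusted p = 3.19e-06). Slc13a3, a sodium-coupled carrier of dicarboxylates in the plasma membrane (chr2:165405028-165473230, minus strand), was at 2.51, 2.31, 3.26 and 5.68 TPM in PBS and 44.8, 39.4 and 32.2 TPM in SNI sEV, a 9.26-fold rise (limma adjusted p = 9.52e-06). Marco, a scavenger receptor for bacteria and particles (chr1:120474538-120505024, minus strand), was at 16, 12.3, 12.9 and 22.9 TPM in PBS and 147, 139.8 and 117 TPM in SNI sEV, and rose 8.18-fold (limma adjusted p = 4.89e-06). The groups did not overlap in any of these 3 genes.

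Acod1, which makes the dicarboxylate itaconate in activated macrophages, rose 2.75-fold from 13.3 ± 2.66 TPM (SD, n = 4) to 37.9 ± 4.42 TPM (SD, n = 3; limma adjusted p = 9.55e-05). On its list of nitric oxide, arginine and itaconate genes 3 of 9 tested genes rose, Acod1, Slc13a3 and Ass1, and 1 fell, the arginase Arg2. The calls of Ass1 and Arg2 were lost with the replicate block (adjusted p = 0.10 and 0.0879).

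Of 19 tested chemokines 4 rose (beside 2.97% of all genes) and 1 fell (beside 2.36%), and the median log2 fold change was -0.07. Besides Ccl5, the B-cell attractant Cxcl13 rose 3.51-fold from 2.15 to 9.77 TPM (limma adjusted p = 0.00034) and Cxcl16, a membrane-bound chemokine, 1.35-fold from 196 to 265 TPM. Cxcl9 went from 0.0779 to 0.521 TPM, under 1 TPM in both groups, so it was tested only through its level in sham sEV. Its call was lost without SNI-sEV replicate 1 (limma adjusted p = 0.0565). Ccl6 fell 1.47-fold from 384 to 260.4 TPM, a call also lost without that library (adjusted p = 0.0965). Cxcl10, a chemokine usually induced by interferon and chosen after its values were seen, was at 6.86 ± 1.42 TPM in PBS (SD, n = 4) and 8.05 ± 1.7 TPM in SNI sEV (SD, n = 3) and did not pass (limma adjusted p = 0.565).

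Receptors for formylated peptides, which bacteria and mitochondria release, rose as well. Fpr1 was at 5.54, 4.71, 3.62 and 6.13 TPM in PBS and 39.5, 29.1 and 25.6 TPM in SNI sEV, and Fpr2 at 6.8, 10.8, 7.35 and 10.1 and 47.5, 39.8 and 33.9 TPM. Both were higher in each SNI-sEV library than in any PBS library, by 5.38-fold and 4.27-fold (limma adjusted p = 9.35e-06 and 1.87e-05). Fpr3 was also called higher but stayed under 1 TPM in both group means, so it was tested only through its level in sham sEV. Its call was lost in 8 of the 18 alternative analyses that tested it. Of 12 tested formyl peptide and chemoattractant receptors 3 rose and 1 fell (median 0.26). The gene that fell was Gpr183, an oxysterol receptor, from 36 to 25.4 TPM, and its call was lost without SNI-sEV replicate 1 (adjusted p = 0.10).

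Complement genes rose in both their starting and their amplifying arms. Of 14 tested complement genes 8 rose and 0 fell (median 0.36), and the number was 5 without a filter on low values, with only the 2 groups fitted, or without SNI-sEV replicate 2. C3, the central component, was at 106, 120.03, 91.2 and 140.01 TPM in PBS and 489, 384 and 385 TPM in SNI sEV, a 3.67-fold rise without overlap (log2 fold change 1.87 ± 0.13 SE, limma adjusted p = 1.42e-05). Cfp, which encodes properdin and stabilises the alternative-pathway convertase, rose 1.51-fold and C2, a part of the classical convertase, 1.6-fold. C1qa, a chain of the recognition molecule C1q, rose 1.46-fold from 2573 ± 277 TPM (SD, n = 4) to 3749 ± 369 TPM (SD, n = 3; limma adjusted p = 0.00394). Its partner chains C1qb and C1qc rose 1.29-fold and 1.27-fold, calls that were lost without SNI-sEV replicate 1 (adjusted p = 0.146 and 0.185).

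Fc receptors, which bind the constant part of antibodies, moved in opposite directions. Fcgr1, the high-affinity activating receptor, was at 68.3, 70.1, 65.1 and 66.7 TPM in PBS and 170.5, 152 and 141 TPM in SNI sEV, and rose 2.26-fold with no overlap (limma adjusted p = 4.89e-06). Fcgr4, another activating receptor, rose 1.9-fold and their signalling chain Fcer1g 1.16-fold, the latter without its call under the replicate block (adjusted p = 0.182). The inhibitory receptor Fcgr2b fell 1.41-fold, from 231, 296, 297 and 265 TPM in PBS to 171, 202 and 206 TPM in SNI sEV (limma adjusted p = 0.0091). The activating Fcgr3 fell 1.27-fold from 316 to 250.2 TPM. Without SNI-sEV replicate 1 Fcgr2b missed the threshold (adjusted p = 0.052).

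Acute-phase and antimicrobial genes counted 4 rises and 0 falls among 8 tested (median 0.26), and 2 rises with the replicate block. Saa3, an acute-phase protein that macrophages make, was at 753, 589, 475 and 631 TPM in PBS and 2097, 1629 and 1519.7 TPM in SNI sEV, a 2.86-fold rise (limma adjusted p = 9.24e-05). Every SNI-sEV library was above every PBS library. Cp, the copper carrier ceruloplasmin, rose 1.72-fold from 3.46 to 6.59 TPM. The lysozyme Lyz2 had the largest rise in mean TPM of the called genes, from 42352 to 49942 TPM (1.18-fold, limma adjusted p = 0.040), but lost its call in 14 of the 21 alternative analyses, and reads shared with Lyz1 are uncertain.

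Of 14 tested cytokines 2 rose (beside 2.97% of all genes) and 0 fell (median 0.10). Il1b was at 25.2, 18.4, 15.1 and 25.2 TPM in PBS and 68.5, 33.5 and 33.2 TPM in SNI sEV, a 2.02-fold rise with a wide spread (limma adjusted p = 0.0332). Tnf rose 1.19-fold from 74 to 88.3 TPM (limma adjusted p = 0.0283). Both calls were lost without SNI-sEV replicate 1 (adjusted p = 0.0847 for Il1b and 0.143 for Tnf), and that of Tnf also with the replicate block (0.0806). In the NF-kappaB list 4 of 21 genes rose and 0 fell (median 0.09), and with the replicate block 1 rose. That list was led by Nfkbiz, an atypical nuclear member of the inhibitor family, which rose 1.77-fold from 14.4 to 26.6 TPM (limma adjusted p = 0.000316). Of 14 Toll-like receptor and adaptor genes 0 passed in limma, and 3 had an unadjusted p under 0.05, all higher.

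Macrophage and microglial markers were among the rises. Adgre1, which encodes F4/80, was at 427, 485, 489 and 562 TPM in PBS and 1321, 1218 and 1107 TPM in SNI sEV, a 2.48-fold rise (limma adjusted p = 1.12e-05), and Aif1, which encodes the microglial marker IBA1, rose 1.8-fold from 201 ± 20.1 TPM (SD, n = 4) to 363 ± 34.8 TPM (SD, n = 3). Among the border macrophage genes 4 of 6 tested rose and 0 fell (median 0.63). Siglec1, the sialic acid receptor CD169, rose 2.61-fold from 99.3 to 258 TPM, and Ms4a7 2.0-fold from 224 to 449.7 TPM (limma adjusted p = 7.82e-05 and 4.89e-06). Cbr2, a carbonyl reductase, went from 0.60, 0.619, 0.779 and 0.90 TPM in PBS to 3.49, 3.37 and 2.13 TPM in SNI sEV. It passed the filter on mean TPM only through the SNI-sEV libraries. Over the 16 defining microglia and macrophage markers 6 rose and 0 fell (median 0.18), and 3 did so under median-of-ratios scaling or without SNI-sEV replicate 1.

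Homeostatic microglial genes showed 2 rises among 18 tested (beside 2.97% of all genes) and 0 falls (median 0.05). Fcrls, an Fc-receptor-like gene of mouse microglia, was at 19.3, 16.5, 18 and 21.4 TPM in PBS and 80.3, 68.8 and 59.2 TPM in SNI sEV, a 3.55-fold rise without overlap (limma adjusted p = 4.89e-06). The purinergic receptor P2ry12 and the fractalkine receptor Cx3cr1, chosen after their values were seen, were at 0.20 and 0.16 on the log2 scale and did not pass (limma adjusted p = 0.452 and 0.323). Of 25 disease-associated genes 4 rose (beside 2.97% of all genes) and 2 fell (beside 2.36%), with a median of -0.06. With the replicate block 1 rose. The largest rise was Lgals3bp, which binds galectins and is also interferon-inducible, 2.57-fold from 424 ± 74.9 TPM (SD, n = 4) to 1084 ± 70.8 TPM (SD, n = 3; limma adjusted p = 2.95e-05).

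Genes that link microglia to pain showed 3 rises among 19 tested (beside 2.97% of all genes) and 0 falls (median 0.04). Ctss encodes cathepsin S, the protease known to release fractalkine from neurons after nerve injury. It was at 3432, 3575, 3209 and 3319 TPM in PBS and 5247, 4939.9 and 4774 TPM in SNI sEV. The groups did not overlap, and the rise was 1.47-fold (log2 fold change 0.56 ± 0.05 SE, limma adjusted p = 0.000123). Trpm2, an oxidant-gated channel, rose 1.55-fold from 1.59 to 3.0 TPM, and the receptor P2ry14 went from 0.651 to 1.17 TPM, a call lost with the replicate block (adjusted p = 0.109). P2rx4 and P2rx7, ATP-gated channels of pain-associated microglia that were chosen after their values were seen, were at 0.16 and 0.10 on the log2 scale and did not pass (limma adjusted p = 0.118 and 0.607).

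Clec4a1, a C-type lectin of the dendritic cell immunoreceptor family, was at 22, 24.1, 25.3 and 33.7 TPM in PBS and 128, 116 and 101 TPM in SNI sEV, and rose 4.29-fold with no overlap (limma adjusted p = 4.89e-06). Its relatives Clec4a2, Clec4a3 and Clec4a4, chosen after their values were seen, had log2 fold changes of 1.57, 1.34 and 1.21, all at least 2-fold. Chosen in the same way, the inhibitory sialic acid receptor Siglece rose 4.21-fold from 1.66 to 10.1 TPM, and Aoah, an enzyme that inactivates bacterial endotoxin, 2.88-fold from 4.39 to 14.5 TPM.

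**Figure D3:**
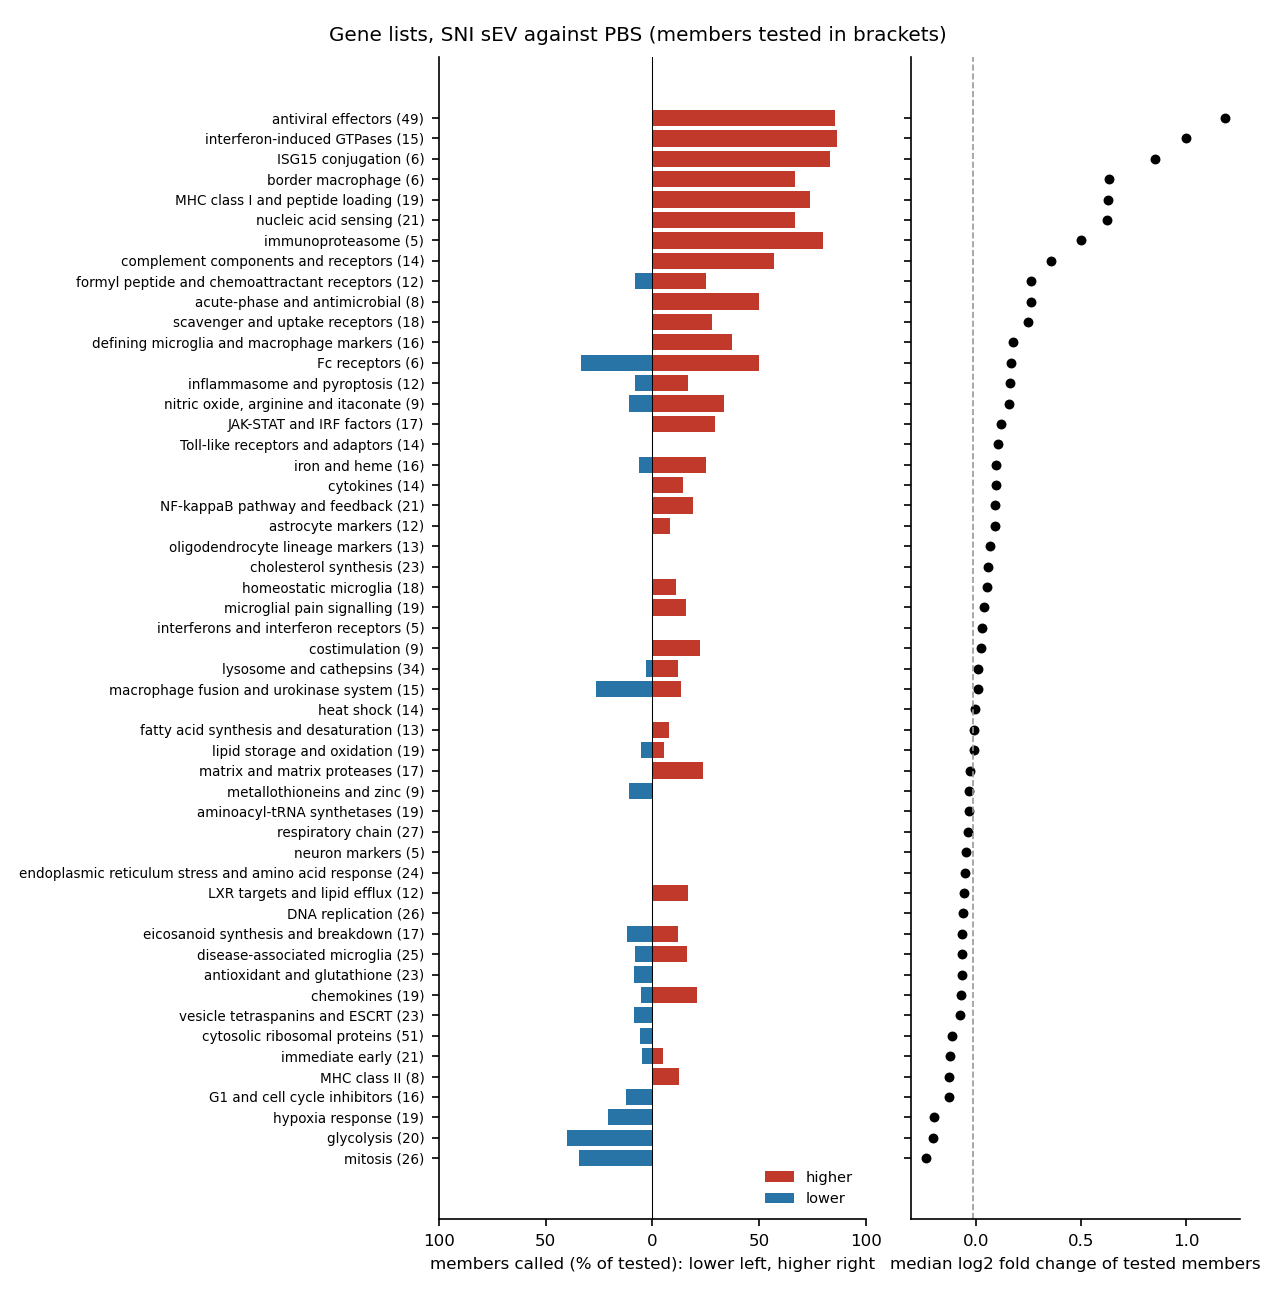
For each gene list, the percentage of tested members called higher or lower in SNI sEV than in PBS and the median log2 fold change of the tested members. The interferon lists reach 42 of 49 members higher in the antiviral effectors, while mitosis has 9 of 26 members lower and glycolysis 8 of 20.

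Among the larger falls was Lsp1, an actin-binding protein of leukocytes (chr7:142460809-142494867, plus strand). It was at 71.1, 74, 78.2 and 70 TPM in PBS and 27.5, 35.2 and 36.3 TPM in SNI sEV. All SNI-sEV libraries were below all PBS libraries, and the fall was 2.2-fold (log2 fold change -1.14 ± 0.09 SE, limma adjusted p = 4.48e-05). Ltc4s, which makes leukotriene C4, was at 28.3, 16.8, 20.7 and 22.2 TPM in PBS and 11.8, 10.4 and 10.4 TPM in SNI sEV and fell 1.91-fold (limma adjusted p = 0.00415). Alox5, which makes the leukotriene precursor, fell 1.51-fold from 11.7 to 7.47 TPM. On the eicosanoid list these were the 2 falls among 17 tested genes (beside 2.36% of all genes). The 2 rises there were Pla2g7, which breaks down platelet-activating factor, and the prostaglandin receptor Ptger4 (median -0.06).

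The urokinase system and macrophage fusion genes had 4 falls and 2 rises among 15 tested (median 0.01). Plau, the protease urokinase (chr14:20836660-20843385, plus strand), was at 1838, 2123, 2122 and 1842 TPM in PBS and 1083, 1407 and 1525 TPM in SNI sEV, a 1.49-fold fall without overlap (limma adjusted p = 0.00778). Its receptor Plaur fell 1.52-fold from 247 ± 18.8 TPM (SD, n = 4) to 164 ± 24.9 TPM (SD, n = 3; limma adjusted p = 0.00411), and Dcstamp, a membrane protein needed for macrophage fusion, 1.52-fold from 26.5 to 17 TPM. F2rl2, a protease-activated receptor, fell 1.71-fold and Itgb3, the integrin beta chain of the vitronectin receptor, 1.51-fold, and both lost their calls without SNI-sEV replicate 1 (adjusted p = 0.0798 and 0.0812). The rises were the matrix protease Mmp9 and the phosphatase Acp5, which were not called without SNI-sEV replicate 1 (adjusted p = 0.052 and 0.0617). All 4 rises of the 17 tested matrix genes lost their calls without that library.

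Further falls among the largest were Slco2b1, a carrier of organic anions, which fell 1.69-fold from 14.8 to 8.41 TPM, and Baiap2l2, 1.87-fold from 2.41 to 0.816 TPM. Ifi27, a gene named for its induction by interferon alpha, went against the other interferon genes: it was at 135, 90.1, 119 and 123 TPM in PBS and 61.2, 60 and 61.8 TPM in SNI sEV. It fell 1.88-fold without overlap (limma adjusted p = 0.000663), and it was not a member of the interferon lists, on which its relative Ifi27l2a rose. Cd9, a tetraspanin that is used as a vesicle marker, fell 1.33-fold from 972 ± 38.9 TPM (SD, n = 4) to 732 ± 36.4 TPM (SD, n = 3; limma adjusted p = 0.000901). It was joined by Anxa2 as the 2 falls among 23 tested vesicle genes (beside 2.36% of all genes), with a median of -0.08. The call of Anxa2 was lost with the replicate block (adjusted p = 0.0997). Trf, which encodes the iron carrier transferrin, fell 1.23-fold from 651 to 528 TPM (limma adjusted p = 0.00224).

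Of 26 tested mitosis genes 9 fell (beside 2.36% of all genes) and 0 rose. All 26 had a negative log2 fold change, beside 53.9% of all tested genes, with a median of -0.24 beside -0.01 over all genes. Ccnb2, a cyclin that drives entry into mitosis, was at 39.3, 38.9, 39.4 and 41.4 TPM in PBS and 25.7, 27.1 and 27.6 TPM in SNI sEV. The groups did not overlap, and the fall was 1.47-fold (limma adjusted p = 0.000274). Cenpa, the histone variant of centromeres, fell 1.47-fold and Cdc20, an activator of the anaphase-promoting complex, 1.41-fold. Cdk1, the mitotic kinase, fell 1.24-fold from 35.7 to 28.6 TPM. The number of falls was 6 with the replicate block or without SNI-sEV replicate 1, and 18 without PBS replicate 1. Of 26 tested DNA replication genes 0 passed in limma (median -0.06), and 6 had an unadjusted p under 0.05, all lower. The letters TTTGAA are the core of the cell cycle homology region. On either strand, the promoters of 16 of 22 mitosis genes (72.7%) held them, whether or not the genes fell. The share was 14.6% over tested genes with a promoter, 22.1% over all falls and 19.7% over all rises.

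Of 20 tested glycolysis genes 8 fell (beside 2.36% of all genes) and 0 rose, and the median log2 fold change was -0.20. A negative log2 fold change was found in 17 of the 20, beside 53.9% of all tested genes. Tpi1, triosephosphate isomerase, was at 546, 540.1, 546 and 493 TPM in PBS and 389, 437 and 459 TPM in SNI sEV, a 1.24-fold fall (limma adjusted p = 0.0123). Eno1, an enolase, fell 1.25-fold from 252 ± 14.7 TPM (SD, n = 4) to 202 ± 8.14 TPM (SD, n = 3), and the glucose carrier Slc2a1 1.23-fold from 124 to 100.1 TPM. The count was lower in several alternatives, for a cause that was not tested. It was 2 without SNI-sEV replicate 1, 3 without PBS replicate 3, 4 under median-of-ratios scaling and 5 with the replicate block. Several of these genes have near-identical processed pseudogenes, so the division of reads makes single values uncertain. Pseudogenes made up 67 of the 350 falls, beside 2407 of the 14806 genes tested. Of 19 hypoxia-response genes 4 fell, Ankrd37, Mif, Ndrg1 and Fam162a, and 0 rose (median -0.20), and 1 fell without SNI-sEV replicate 1 or PBS replicate 3.

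**Figure D4:**
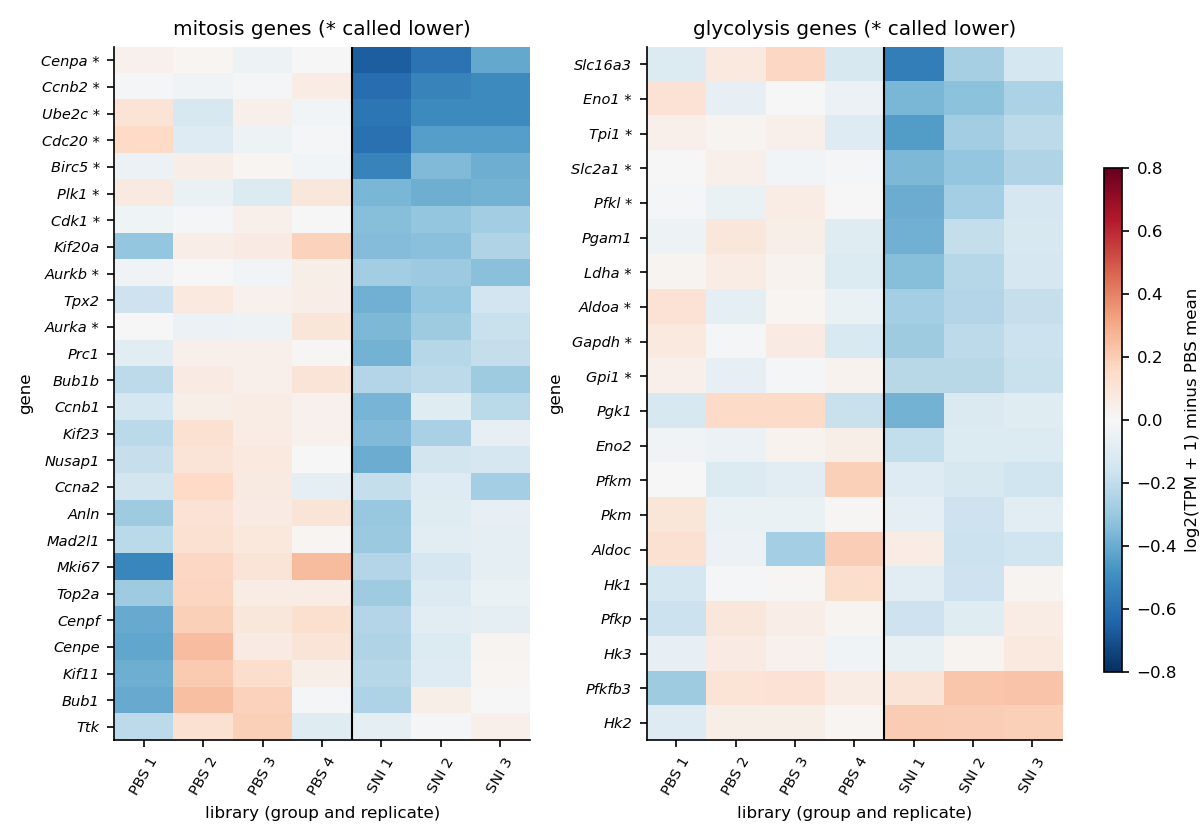
Heat maps of the mitosis and glycolysis genes in the 4 PBS and 3 SNI-sEV libraries, with log2(TPM + 1) minus the mean over PBS as colour and a star on genes called lower. The SNI-sEV columns are mostly below the PBS mean in mitosis, where 9 of 26 genes carry a star, and in glycolysis, where 8 of 20 do.

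Several lists had 0 limma calls in either direction, among them 23 tested cholesterol synthesis genes (median 0.06), 27 respiratory chain genes (median -0.04), 24 genes of endoplasmic reticulum stress (median -0.05), 19 aminoacyl-tRNA synthetases (median -0.03) and 14 heat shock genes (median -0.01, and 0.01 after quantile normalization). At an unadjusted p under 0.05, limma gave 4 cholesterol synthesis genes, 5 respiratory chain genes, 4 endoplasmic reticulum stress genes, 1 aminoacyl-tRNA synthetase and 1 heat shock gene. Of 34 lysosome genes 4 rose (beside 2.97% of all genes), the cathepsins Ctss, Ctsh and Ctsc and the sterol carrier Npc2. On the same list 1 fell (beside 2.36% of all genes), Atp6v0c (median 0.01). The call of Atp6v0c was lost in 13 of the 21 alternative analyses, with the replicate block among them (adjusted p = 0.158). Ctsh, an aminopeptidase, rose 1.32-fold from 104 to 138 TPM (limma adjusted p = 0.000903). Of 51 ribosomal protein genes 3 fell (beside 2.36% of all genes) and 0 rose (median -0.11), and 0 fell with the replicate block. Of 16 tested iron and heme genes 4 rose (beside 2.97% of all genes), among them the metal carriers Slc11a1 and Slc11a2, and 1 fell, the heme oxygenase Hmox1 (median 0.10). The calls of Slc11a1 and Hmox1 were lost with the replicate block (adjusted p = 0.0605 and 0.0894).

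Sham-sEV libraries were used to place these values. Against sham sEV, 7388 genes (49.9%) were higher in SNI sEV and 2319 (15.7%) lower, so 76.1% of calls were higher, and the median log2 difference over all genes was 0.24. Under median-of-ratios scaling the calls were 3921 higher and 4820 lower (44.9% higher, median -0.04), and under quantile normalization 4482 and 4051 (52.5% higher, median 0.01). Both contrasts use the same SNI-sEV libraries. Of the 440 genes above PBS, 347 were below sham sEV, 54 were not called different from it and 39 were above it. Of the 350 below PBS, 239 were above sham sEV, 40 were not called different and 71 were below it. Most called SNI-sEV levels therefore lay between those of both other groups. Ccl5 averaged 18328 TPM in sham sEV, Marco 4903, Saa3 61044, Irf7 1098 and Oas3 68.2 TPM, each above SNI sEV, and Plau averaged 34.8 TPM, below it.

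The 39 genes (0.263%) above both groups include Ctss, Cbr2 and the lectin gene Clec4b1. Ctss averaged 3480.1 ± 143 TPM in sham sEV (SD, n = 3), and its call against sham sEV was lost under median-of-ratios scaling (adjusted p = 0.0555). Cbr2 averaged 0.725 TPM in PBS, 3.0 TPM in SNI sEV and 0.659 TPM in sham sEV. With both other means under 1 TPM, Cbr2 passed the filter only through the SNI-sEV libraries in which it is high. Clec4b1 was at 3.01, 2.65, 3.53 and 4.45 TPM in PBS and 9.42, 8.97 and 6.71 TPM in SNI sEV, with 4.54 TPM in sham sEV (limma adjusted p = 0.000903 against PBS and 0.0013 against sham sEV). Xdh, which encodes xanthine dehydrogenase and makes uric acid, averaged 9.97, 16.5 and 8.5 TPM in the same order, and Ctla2b, a cysteine protease inhibitor, 97, 139.9 and 14.7 TPM. Itm2b, a membrane protein that is processed by furin, was at 1846, 2522 and 1437 TPM.

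Of the 71 genes (0.480%) below both groups, 40 were pseudogenes, beside 67 of all 350 falls against PBS and 2407 of the 14806 tested genes. All 8 glycolysis genes that fell against PBS were in this set. Eno1 averaged 255 TPM in sham sEV and Fcgr2b 242 TPM, above their SNI-sEV means. Arg2, the mitochondrial arginase, averaged 13.6 TPM in PBS, 9.76 TPM in SNI sEV and 22.1 TPM in sham sEV, and the transcription factors Maff and Nfil3 were at 4.17 and 7.23 TPM in SNI sEV, beside 6.1 and 9.37 TPM in PBS. The calls of Maff, Arg2 and Nfil3 against PBS were lost with the replicate block (adjusted p = 0.0598, 0.0879 and 0.106). Baiap2l2 kept its call against PBS in the 20 alternative analyses that tested it.

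**Figure D5:**
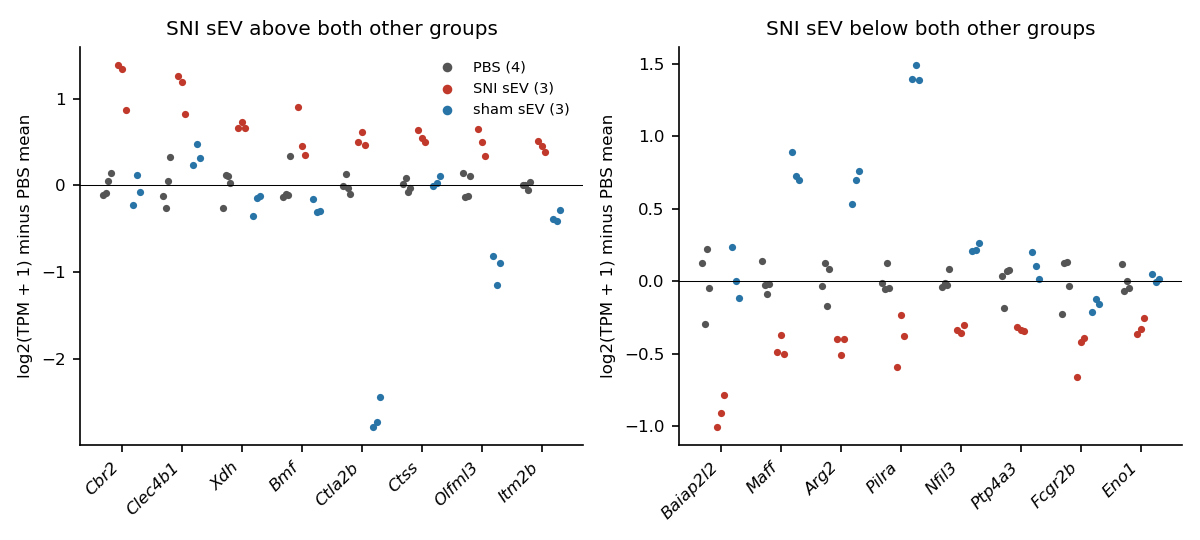
The log2(TPM + 1) minus the mean over PBS for named genes whose SNI-sEV level was above or below both other groups, 1 point per library. The 3 SNI-sEV points of Cbr2 lie above those of both other groups, and those of Eno1 lie below them.

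The authors' deposited table holds a fold change with a sign and an FDR, or false discovery rate, for 2375 genes in the same comparison. By the authors' deposited table, at an FDR under 0.05, 107 genes were higher and 44 lower, and 54 were higher and 1 lower by at least 2-fold. Of the genes called here, 490 were listed in the authors' deposited table, and all 490 had the same sign there. Of the 440 rises found here, 313 were listed and 105 had an FDR under 0.05 there. Both sets of values come from the same libraries, and the fold changes given below equal those found here. The shared sign is therefore no independent support. The authors' deposited table gives Ccl5 a fold change of 21.9 (FDR 0.0251), Irf7 5.26 (0.0342) and C3 3.67 (0.0312). For Lsp1 the authors' deposited table gives -2.20 (FDR 0.0314), and for Plau -1.49 with an FDR of 0.168, above the threshold that Plau passed here.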

How the data were processed

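Messenger RNA was measured in 10 libraries of primary cortical microglia. Per the labels' protocols, total RNA came from a column kit with DNase and the library kit was stranded and selects mRNA. Per the submitters' processing notes, the build was mm10 and the tools were featureCounts 2.0.2, Subread, BWA and bcl2fastq, and their roles, the annotation and the treatment of reads shared by copies are not given in the sources used here. The authors deposited TPM for each library. Per the file headers, a second table by the authors holds a signed fold change, a score with no value between -1 and 1, beside an adjusted p-value that they call FDR, without naming the test.

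Groups came from the labels. The 14806 genes that averaged 1 TPM or more across 10 libraries were fitted as log2(TPM + 1) in limma 3.58.1 (R 4.3.3), where each of the 3 groups has its mean and all share a spread (eBayes with a trend). SNI sEV minus PBS and SNI sEV minus sham sEV got two-sided tests, p-values adjusted after Benjamini and Hochberg over all 14806 genes, and a threshold of 0.05. The filter left out 17268 genes. Just inside it was Slc39a2 and just outside 1700120K04Rik. Of the tested genes 99 had means under 1 TPM in both PBS and SNI sEV, and 14 of these were called higher and 0 lower. TPM values carry the SD over libraries, and log2 fold changes the fitted standard error. The fit was tested on simulated data. A few genes are in the fit and in the counts but are not reported here by name.

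The comparison, the 57 gene lists and the rule for named genes were chosen with earlier results of these data known. The rule takes the 15 largest rises and falls among called genes without overlap and with a mean of at least 2 TPM, the 10 largest in TPM in each direction, up to 6 called members per list by p, the 2 members highest in TPM where a list has no call, and up to 8 genes beyond both other groups in each direction. Predicted genes were left out of the first and last of these. Gene coordinates are those of GENCODE on GRCm38, and promoter sequences are from RefSeq, which held 9682 of the tested genes. The sequence table is not complete.

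To see whether equal replicate numbers pair libraries, deviations from the group mean were correlated over genes. The correlation was 0.363, 0.228 and 0.154 for same-numbered PBS and SNI-sEV libraries and -0.351 to 0.220 for different-numbered ones. These values overlap, so they do not settle whether the numbers pair libraries. An alternative fit of these 7 libraries used the number as a replicate block, in which PBS replicate 4 has no partner. For genes beyond both other groups the block was fitted over all 10 libraries, and pairing of the sham-sEV libraries was not examined. Further alternatives changed the scaling (median-of-ratios or quantile normalization), the filter (none, or 5 TPM on average), the pseudocount (0.1 or 0.5) and the spread (robust, or from the 2 groups alone), or left out each library in turn. Leaving out PBS replicates 1 and 2 together or all pseudogenes was chosen after seeing the data.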

Additional observations from a re-analysis of the deposited data

Results flagged for a closer look

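In the 4 PBS libraries 1 library stood far from the other 3 in 20 of the 260 values examined (7.69%), by the gap to the nearest library as a share of the whole range of the group. Chance marks about 1 in 20 such groups. PBS replicate 2 was the high library in 9 of them, all of the interferon response: the share was 0.884 for Oas3, 0.834 for Irf7, 0.911 for Zbp1, 0.977 for Ifit1, 0.869 for Ifit3, 0.861 for Oasl2, 0.864 for Usp18, 0.913 for Gbp2 and 0.909 for the summed TPM of the ISG15 conjugation genes. Without PBS replicate 2, 99 of the 132 tested interferon-list genes were higher in SNI sEV than in PBS, beside 97 with it.

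PBS replicate 2 was the low library for Ptp4a3 (0.838) and Atp5b (0.924). PBS replicate 4 was low for Tpi1 (0.880) and high for Bmf (0.936), Zc3h12a (0.868) and the summed neuron markers (0.899). PBS replicate 3 was low for H2-T22 (0.842) and Thy1 (0.914). PBS replicate 1 was high for the summed iron and heme genes (0.951), and low for the summed lipid storage genes (0.843) and the summed mitosis genes (0.868).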

How the results depend on the processing

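Of the 179 named genes that passed against PBS, 98 passed in each of the 21 alternative analyses, 5 more in the 20 that tested them, 76 missed the threshold in at least 1 and 55 in 3 or more, and 0 changed direction while called. Rises against PBS ranged from 278 to 502 with single libraries left out, beside 440, and were 334 with the replicate block. The 350 falls became 155 with only the 2 groups fitted, 127 with the replicate block, 798 without PBS replicates 1 and 2, and 92 to 653 with single libraries left out. The causes were not tested. The share of rises among calls was 55.7% in the main fit and 67.8% with only the 2 groups fitted. It was 72.5% with the replicate block, which was also fitted on these 2 groups alone, and 63.5% under median-of-ratios scaling.

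Against sham sEV, 7388 genes were higher and 2319 lower, with 6610 to 8267 and 1999 to 2642 when single libraries were left out. Median-of-ratios scaling gave 3921 and 4820, and quantile normalization 4482 and 4051. The 39 genes above both groups became 62 without a filter and 62 with the replicate block over all 10 libraries. They became 69 without PBS replicates 1 and 2, and 18 to 66 with single libraries left out. The 71 genes below both became 39 without a filter, 33 without pseudogenes, and 15 to 102 with single libraries left out. The 7 interferon lists had 83 to 104 rises and 0 falls in the 21 alternatives, and 76 of the 97 genes that rose did so in every one of them. TPM keeps no depth, so how far read numbers limit the low genes is unknown, and genes under 1 TPM in a group are the least certain.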
